A study of Mus musculus with 36 samples.

Results

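Thymic fibroblasts and cortical thymic epithelial cells (cTEC) are compared here: the 6 arrays titled as fibroblasts against the 6 arrays titled as cTEC, 12 of the 36 arrays of the study. Each array holds RNA of sorted thymic cells of male wild-type C57BL/6J mice aged 1, 3 or 6 months, with 2 arrays for each population and age and no treatment or engineered allele. The other 24 arrays hold medullary epithelial cells with low or high surface CD80 and MHC-II (called mTEClo and mTEChi) and Sirpa- and Sirpa+ dendritic cells at the same ages, and are used here as a common measure of spread and for 1 comparison. Enzymes released the cells from the thymus, a flow sorter separated them, and amplified RNA was hybridised to Affymetrix mouse arrays. For fibroblasts and cTEC, the labels do not name the surface markers of the sort. The design text names 2 mice per age and the labels name 1 mouse per sample, so the spread between arrays is that of very few animals.

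The thymic cortex is built by an epithelial meshwork in which T cell precursors divide, rearrange their receptor genes and are selected on self peptides. Cortical epithelium supplies these precursors with Notch ligands, interleukin 7 and chemokines, and presents peptides made by a proteasome subunit and proteases that few other cells use. Fibroblasts lie in the capsule, in septa and around vessels, where they make the collagen matrix and are known sources of growth factors for epithelium, while pericytes share many of their surface receptors. With age the thymus involutes, losing epithelium and thymocytes and gaining fibrous and fatty tissue.

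The labels were first set against marker genes. Psmb11, the cortex-specific thymoproteasome subunit, had a log2 signal of 10.18, 10.91 and 12.16 (lowest, median and highest of 6 arrays) in cTEC and of 4.47, 4.75 and 5.02 in fibroblasts. All 6 cTEC arrays lay above all 6 fibroblast arrays, by 6.22 ± 0.22 on the log2 scale (standard error, 74.3-fold; adjusted p = 9.4e-18, limma with Benjamini-Hochberg adjustment over 14495 genes, as for every adjusted p below). Pdgfrb, the receptor for PDGF-BB on fibroblasts and pericytes, ran the other way, at 11.29, 12.45 and 13.38 in fibroblasts and 4.89, 5.66 and 5.99 in cTEC. Postn, a matricellular protein of collagen-rich tissue, stood at 11.31, 12.89 and 13.32 in fibroblasts and 5.51, 5.86 and 6.94 in cTEC. Neither gene's arrays overlapped, so the 3 markers ordered all 12 arrays as their labels do. The mean over 14 fibroblast markers was 8.17 to 11.71 in the fibroblast arrays and 6.32 to 6.77 in cTEC, and the mean over the 13 measured cTEC markers was 10 to 11.22 in cTEC and 5.92 to 6.32 in fibroblasts. In RNA of sorted pools, fewer cells of a type and less RNA per cell cannot be told apart.

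Other cells' transcripts were present in both sorts. The mean over 13 thymocyte markers, among them the recombinases Rag1 and Rag2 and the CD3 chains, was 8.82 to 11.1 in fibroblast arrays and 6.54 to 8.77 in cTEC arrays, against 5.67 to 7.99 in the other 24 arrays. It was 8.82 and 10.4 in the fibroblast arrays at 1 month, 10.5 and 10.4 at 3 months and 10.8 and 11.1 at 6 months, and 8.77 and 8.27, 6.54 and 7.56, and 7.68 and 8.36 in cTEC. Its mean thus stood lowest at 1 month in fibroblasts and at 3 months in cTEC, and results are given below also with it as a covariate. Mural cell markers, those of pericytes and smooth muscle, averaged 8.03 to 10.04 in fibroblasts and 6.66 to 7.08 in cTEC. Endothelial markers did not follow (1 of 9 tested higher in fibroblasts), and of 11 macrophage markers none was called either way.

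A pair of fibroblast arrays stood apart. Replicate 2 at 6 months had the lowest mean of fibroblast markers, 8.17 against 10.03 to 11.71 in the other 5 arrays, and the arrays of its pair correlated at r = 0.958 over all genes against 0.97 and 0.982 for fibroblasts at the other ages and 0.98 to 0.983 for cTEC. Replicate 1 at 1 month had an erythroid marker mean of 7.86 where the other fibroblast arrays had 4.87 to 5.39, and the lowest thymocyte mean. Several counts below are therefore also given without them, though not every count that moved. Among the called list members, Plk1 (0.93), Tgfb3 (-0.88), Hgf (-0.89), Ctsl (-0.79) and Col4a5 (-0.83) fell under 2-fold without replicate 2 at 6 months. Atf3 (-0.65), Fn1 (-0.62), Thbs1 (-0.66) and Thbs2 (-0.815) did so too.

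**Figure D1:**
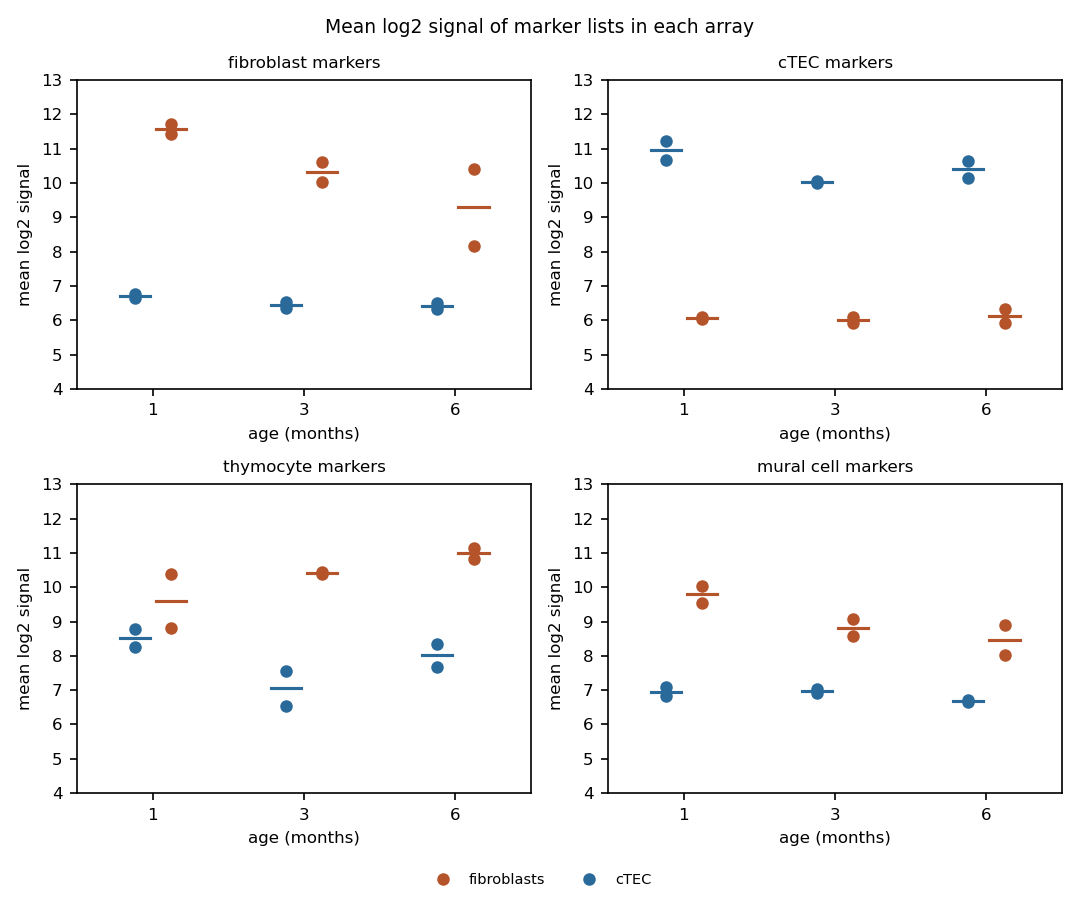
Mean log2 signal of the tested genes of 4 marker lists (vertical axis) by age in months (horizontal axis), 1 point per array and a bar at the mean of the 2 arrays, fibroblasts in orange and cTEC in blue. Fibroblast markers separate the populations at each age but reach only 8.17 in 1 fibroblast array at 6 months, cTEC markers separate them at each age too, and thymocyte markers are at 8.82 to 11.1 in fibroblasts and 6.54 to 8.77 in cTEC.

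With ages weighted equally, 3087 of 14495 genes tested (21.3%) differed between the populations at an adjusted p under 0.05 and at least 2-fold, the rule by which a gene is said below to be called. Of these, 1312 (9.05%) were higher in fibroblasts and 1775 (12.2%) in cTEC, while the median difference of all genes was 0.0284. The arrays did not overlap for 692 of the former (4.77% of genes tested) and 1414 of the latter (9.76%). The table has no detection calls, so a low signal was not read as absence, and a large fold rests partly on how the dim side was scaled.

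Receptors and matrix proteins headed the genes higher in fibroblasts whose arrays did not overlap. Pdgfrb differed by 6.92 ± 0.29 (121.5-fold, adjusted p = 1.87e-16) and Postn by 6.64 ± 0.29 (99.5-fold, adjusted p = 5.68e-16). Pdgfra, the second PDGF receptor and a general fibroblast marker, had 8.1, 11.02 and 11.87 in fibroblasts and 4.59, 5.15 and 5.23 in cTEC, a difference of 5.59 ± 0.27. Col6a3, a chain of the beaded-filament collagen VI, differed by 5.98 ± 0.26 (63.2-fold) and Col1a2, a chain of type I collagen, by 5.41 ± 0.27 (42.5-fold, adjusted p = 9.07e-15). Every fibroblast array lay above every cTEC array for these genes, though the fibroblast values ranged widely, from 8.57 to 13.08 for Col6a3 and from 9.66 to 14.05 for Col1a2, with replicate 2 at 6 months lowest. Secreted proteins among the top 15 were Spon1 (5.38), Sparcl1 (5.05), the adhesion protein Vtn (5.01), the small proteoglycan Lum (4.93) and the protease inhibitor Tfpi2 (5.45).

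Genes known from pericytes were higher in fibroblasts. Kcnj8, the pore of a vascular ATP-sensitive potassium channel, was at 9.67, 10.42 and 11.56 in fibroblasts and 4.99, 5.26 and 5.48 in cTEC, a difference of 5.30 ± 0.13 with an adjusted p of 1.12e-20. Abcc9, which encodes its sulfonylurea subunit, differed by 4.45, Rgs5 by 3.90 and Gucy1b1, a subunit of the nitric oxide receptor, by 4.85. For each, the fibroblast and cTEC arrays were fully separated, and 10 of 14 mural genes were called with and without the 6-month arrays. Whether these transcripts and those of collagens come from the same cells was not tested. Of the genes of smooth muscle contraction, Acta2 was called (1.22 ± 0.24), with overlap, and differed by 0.84 without fibroblast replicate 1 at 6 months and by 0.67 when its probe sets were averaged. Tagln (-0.50), Myl9 (0.09), Cnn1 (0.52) and Myh11 (0.86) were not called.

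On the cTEC side, the largest difference among genes whose arrays did not overlap was that of Tbata, a gene of cortical epithelium also known as Spatial. It had 11.42, 12.17 and 13.12 in cTEC and 3.44, 4.06 and 6.63 in fibroblasts (-7.82 ± 0.30, 226.5-fold, adjusted p = 3.1e-17). The fibroblast array at 6.63 was again replicate 2 at 6 months, and it still lay below every cTEC array. Ccl25, the chemokine that draws precursors bearing CCR9, was at 12.11, 12.71 and 13.6 in cTEC and 5.37, 5.66 and 6.06 in fibroblasts, a difference of -7.07 ± 0.19 (adjusted p = 3.4e-20). Prss16, the thymus-specific serine protease, differed by -6.84 (114-fold) and the carbonyl reductase gene Cbr2 by -7.12. Keratin 18 (Krt18, -6.76), the desmocollins Dsc2 (-6.44) and Dsc3 (-6.56) and the desmosomal protein Perp (-6.24) gave the epithelial share of the top 15. The transcription factor Isl1 (-6.62), the kinase Ripk4 (-6.75) and the potassium channel Kcnj15 (-6.60) completed a set whose cTEC arrays all exceeded all fibroblast arrays.

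Promoters of 4 of these genes are shown because the genes are among the clearest of each population and their windows hold the letters of textbook motifs. They are RefSeq sequences of GRCm38.p6, 250 bases before to 50 bases after a start site, on the plus strand of chr14:54625060-54625359, chr15:102027966-102028265, chr6:4505368-4505667 and chr3:54360857-54361156. Capitals mark CAGGTG and GACGC (read as GCGTC on the other strand) in Psmb11, CAGGTG (as CACCTG) in Krt18, GGGCGG in Col1a2 and TATAAA in Postn, which has 2 start sites of which the second is printed.
Psmb11: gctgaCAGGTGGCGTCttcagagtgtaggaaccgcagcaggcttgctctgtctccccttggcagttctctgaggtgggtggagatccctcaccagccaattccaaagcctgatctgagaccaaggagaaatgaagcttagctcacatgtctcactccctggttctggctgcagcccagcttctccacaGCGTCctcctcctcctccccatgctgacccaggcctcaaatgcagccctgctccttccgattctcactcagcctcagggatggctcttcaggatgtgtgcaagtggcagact
Krt18: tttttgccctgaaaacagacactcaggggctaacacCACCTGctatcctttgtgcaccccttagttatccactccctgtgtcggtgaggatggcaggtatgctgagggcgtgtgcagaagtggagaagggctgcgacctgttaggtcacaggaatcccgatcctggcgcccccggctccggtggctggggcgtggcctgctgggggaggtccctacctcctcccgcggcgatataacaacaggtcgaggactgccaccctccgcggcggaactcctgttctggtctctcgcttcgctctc
Col1a2: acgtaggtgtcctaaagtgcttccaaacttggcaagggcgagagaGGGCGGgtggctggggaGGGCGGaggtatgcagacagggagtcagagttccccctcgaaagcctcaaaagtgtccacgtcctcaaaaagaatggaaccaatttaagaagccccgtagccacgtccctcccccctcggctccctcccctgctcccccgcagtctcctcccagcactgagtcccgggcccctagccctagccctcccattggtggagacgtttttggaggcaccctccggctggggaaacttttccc
Postn: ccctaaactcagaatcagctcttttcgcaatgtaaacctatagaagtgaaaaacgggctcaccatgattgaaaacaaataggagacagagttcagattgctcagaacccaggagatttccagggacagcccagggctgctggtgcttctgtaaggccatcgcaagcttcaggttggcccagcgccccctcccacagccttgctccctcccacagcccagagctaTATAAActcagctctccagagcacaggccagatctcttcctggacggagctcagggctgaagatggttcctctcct
GACGC is the core letters that FOXN1, the master regulator of thymic epithelium, is known to read, CAGGTG is the E-box read by SNAI and ZEB repressors, GGGCGG is the GC box and TATAAA the TATA box. In Psmb11 the GACGC letters begin at positions -239 and -62 from the start, and a CAGGTG at -245 lies next to the first without overlapping it. In Krt18 CACCTG begins at -214, in Col1a2 GGGCGG begins at -205 and -188, and in Postn TATAAA begins at -26.

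These letters are short and common. Both strands were searched, and GACGC was in a promoter of 29.6% of all 27025 genes listed and 46.4% of the 11627 tested genes that matched, against 47.4% of 1115 matched genes with all cTEC arrays above all fibroblast arrays and 38.4% of 542 such genes of fibroblasts. CAGGTG was in 22.6% of the tested genes, 29.7% of the cTEC genes and 20.8% of the fibroblast genes. GGGCGG was in 63.6%, 65.3% and 63.5%, TATAAA in 10.3%, 12.6% and 12.2%, CATTCC, the letters TEAD factors read, in 14.7%, 16.7% and 16.1%, and TGACTCA, the AP-1 letters, in 5.16%, 6.37% and 5.35%. The shares are descriptions of these windows and say nothing of whether a factor binds there.

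Interstitial collagens divided by chain. Of 16 fibrillar and fibril-associated collagen genes tested, 10 were higher in fibroblasts and 2 in cTEC, with a median difference of 2.14. Col3a1, the chain of reticular fibres, was at 10.27, 13.2 and 14.25 in fibroblasts and 8.8, 9.39 and 10.16 in cTEC (3.48 ± 0.36). Col15a1, a chain found next to basement membranes, differed by 4.002 and Col5a3, which helps set fibril diameter, by 3.30, both without overlap. Col1a1, the other type I chain, differed by 3.40 ± 0.25 but overlapped, because replicate 2 at 6 months had 5.84 and the cTEC arrays reached 5.97. Against this direction, Col8a2, a network collagen best known from the cornea, had 5.15, 5.97 and 7.86 in cTEC and 3.47, 3.57 and 4.23 in fibroblasts (-2.59 ± 0.14), and Col12a1 differed by -1.24. Every cTEC array exceeded every fibroblast array for both.

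The enzymes that mature collagen did not move as a block. Of 16 tested, 6 were higher in fibroblasts and 1 in cTEC (median 0.574), and the counts were 10 and 0 with the thymocyte covariate and 8 and 0 without the 6-month arrays. Pcolce, which speeds removal of the procollagen C-propeptide, differed by 3.47 ± 0.30 with no overlap and the lysyl hydroxylase Plod1 by 2.75. Lox, the enzyme that starts cross-linking, was the cTEC gene: 8.13, 9.04 and 9.84 in cTEC against 5.6, 7.74 and 9.16 in fibroblasts (-1.46 ± 0.24), with overlap. Its difference was 0.06 at 1 month, not called, and -1.98 and -2.48 at 3 and 6 months, and without the 6-month arrays it was -0.96, under 2-fold. Serpinh1, the collagen chaperone, overlapped and differed by 0.45, not called.

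Small proteoglycans, which bind and space collagen fibrils, also ran both ways. Of 12 tested, 5 were higher in fibroblasts and 2 in cTEC, with a median of 0.00463. Fmod, fibromodulin, was a cTEC gene at every age: 10.76, 11.11 and 11.86 in cTEC against 4.59, 6.57 and 7.64 in fibroblasts, with no overlap and a difference of -4.93 ± 0.26 (30.5-fold, adjusted p = 2.54e-14). Its relatives Lum (4.93), Aspn (4.11) and Bgn (3.65) differed by similar or smaller amounts the other way, again with no overlap. Dcn, decorin, was at 11.29, 11.79 and 12.33 in cTEC and 11.25, 13.28 and 13.75 in fibroblasts, so cTEC arrays lay well within the fibroblast range. Its difference of 1.19 ± 0.31 fell under 2-fold without replicate 1 at 6 months (0.83) and with quantile normalization (0.98). Prg4, lubricin, was called toward cTEC (-1.60) on the strength of the 3-month arrays, at 8.03 and 8.14 where the other cTEC arrays had 4.17 to 4.90.

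Among elastic fibre genes, 6 of 14 were higher in fibroblasts and 2 in cTEC (median 0.979). Emilin1, which sits at the elastin-microfibril interface, had 7.53, 9.23 and 10.26 in fibroblasts and 5.28, 5.57 and 5.99 in cTEC (3.60 ± 0.19), and the latent TGF-beta binding protein Ltbp1 differed by 3.42, both with no overlap. Its relative Ltbp3 was the reverse, at 11.58, 11.88 and 12.31 in cTEC and 7.7, 10.28 and 11.3 in fibroblasts (-1.89 ± 0.28). Fbln5, which guides elastin assembly, differed by -1.39 with overlap. Without the 6-month arrays the counts were 9 and 2, as they were without fibroblast replicate 2 at 6 months.

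Matricellular genes, whose products signal to cells rather than bear load, also ran both ways: 8 of 20 higher in fibroblasts and 4 in cTEC (median 0.769). Beside Postn, Sparcl1 and Vtn, the fibroblast side held Ccn2, the connective tissue growth factor (2.57 ± 0.29), Matn2 (3.28) and Thbs4 (3.30). Tnc, tenascin C, was at 9.63, 11.47 and 12.15 in cTEC and 5.55, 8.23 and 9.13 in fibroblasts, with no overlap and a difference of -3.19 ± 0.24 (9.13-fold). The other cTEC genes were Thbs1 (-1.03), Thbs2 (-1.02) and Fn1 (-1.004), which sat at the 2-fold line and overlapped. All 3 fell under it without fibroblast replicate 2 at 6 months (-0.66, -0.815 and -0.62) and in several other fits that left out 1 array, and the counts without that array were 8 and 1. Without the 6-month arrays they were 9 and 1, with the thymocyte covariate 10 and 1, and after quantile normalization 8 and 2.

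Of 20 proteases and inhibitors of the matrix, 10 were higher in fibroblasts and none in cTEC (median 0.842). Htra3, a secreted serine protease, differed by 4.43 ± 0.31, the C1 inhibitor Serping1 by 3.40, stromelysin Mmp3 by 3.13 and the aggrecanase Adamts5 by 2.897, the last with overlap. The gelatinases were not called, Mmp2 differing by -0.10 ± 0.32 and Mmp9 by -0.33 ± 0.31. Membrane-type Mmp14 differed by -0.02 ± 0.21, and its 2 other probe sets gave 0.08 and 0.12.

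Basement membrane genes were called in both directions. Of 20 tested, 4 were higher in fibroblasts and 7 in cTEC (median -0.233). Lama3 and Lamb3, chains of the epithelial laminin of hemidesmosomes, were at 9.02, 9.58 and 9.85 and at 8.5, 9.86 and 10.01 in cTEC, and at 3.89, 4.49 and 4.75 and 5.01, 5.43 and 6.58 in fibroblasts. They differed by -5.05 ± 0.15 and -4.12 ± 0.20 with no overlap, as did the hemidesmosome collagen Col17a1 (-2.63), Agrn (-2.38) and Col18a1 (-2.12). Lama2, the laminin chain of mesenchymal basement membranes, was the mirror image with 7.73, 10.49 and 12.63 in fibroblasts and 5.82, 6.13 and 6.61 in cTEC (4.18 ± 0.29), and Nid1, which links laminin to collagen IV, differed by 3.55. The main collagen IV chains Col4a1 (0.95) and Col4a2 (0.61) were not called. The counts were 8 and 7 without the 6-month arrays, and 6 and 6 without fibroblast replicate 2 at 6 months.

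**Figure D2:**
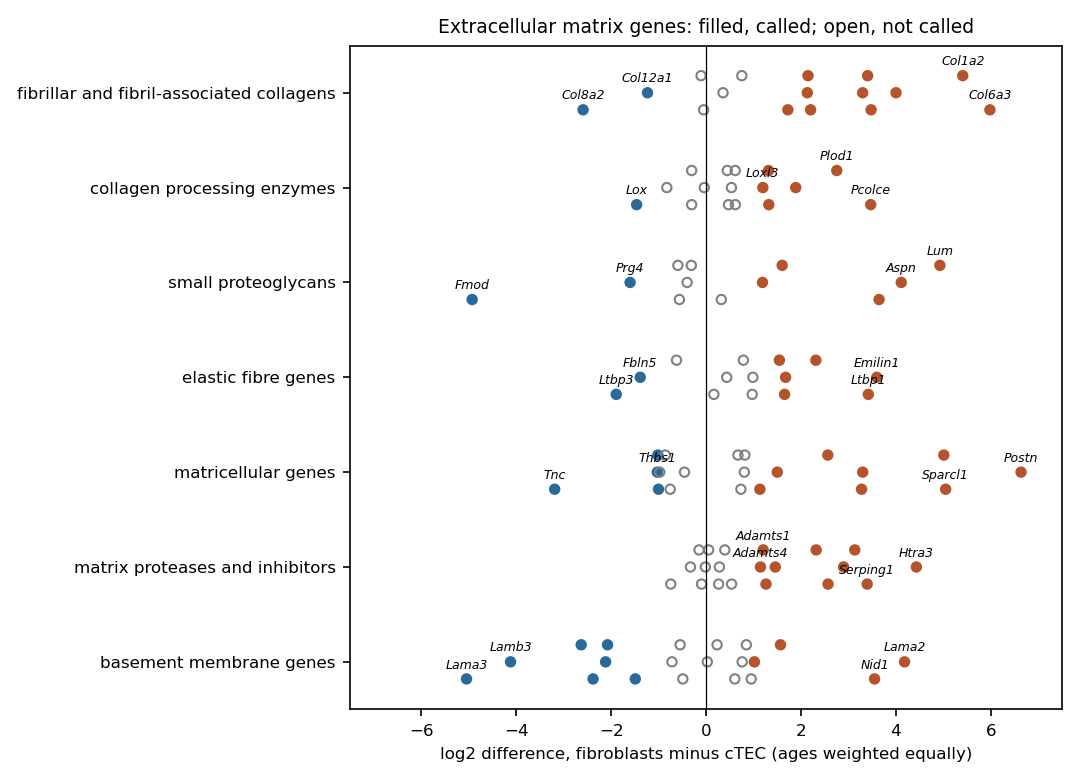
Log2 difference, fibroblasts minus cTEC with ages weighted equally (horizontal axis), of each tested gene in 7 extracellular matrix lists (vertical axis), with called genes filled, in orange where higher in fibroblasts and in blue where higher in cTEC, and the others open. Both colours appear in every list except the proteases and inhibitors, from Lama3 at -5.05 and Fmod at -4.93 to Postn at 6.64.

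Epithelial genes that were called were higher in cTEC, and called mesenchymal genes were higher in fibroblasts except for Snai2 and Cdh11. Of 23 epithelial junction and regulator genes, 17 were higher in cTEC and none in fibroblasts (median -2.76), led by Krt18, Krt8 (-5.90) and desmoplakin (Dsp, -5.75). E-cadherin (Cdh1) was at 10.2, 10.8 and 11.18 in cTEC and 4.68, 6.11 and 7.77 in fibroblasts (-4.82 ± 0.31), and the splicing regulator Esrp1 differed by -4.80. For Epcam (-3.73) and Esrp2 (-1.71) a second probe set gave 0.02 and 0.57, so the probe sets of these genes disagreed. Of 14 mesenchymal regulators and cytoskeletal genes, 8 were higher in fibroblasts (median 2.05), among them the E-box repressors Zeb2 (5.17) and Zeb1 (2.69), Prrx1 (4.78), Meox2 (4.34) and vimentin (Vim, 2.503), each with no overlap. Snai2, or Slug, a repressor of E-cadherin known from epithelial-mesenchymal transition, was in contrast at 11.51, 11.70 and 11.86 in cTEC and 7.08, 9.24 and 10.25 in fibroblasts, a difference of -2.57 ± 0.24 with no overlap. Cdh11, a cadherin named for mesenchyme, was at 8.42, 9.18 and 9.36 in cTEC and 4.54, 7.44 and 8.96 in fibroblasts (-1.58 ± 0.30), with overlap, and was -0.69 and not called without the 6-month arrays.

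Ligands that thymocytes meet were called in both populations, more of them in cTEC. Of 16 tested, 8 were higher in cTEC and 3 in fibroblasts (median -1.12). Interleukin 7 (Il7), the survival factor of early T cells, was at 10.58, 11.05 and 11.29 in cTEC and 4.83, 5.49 and 6.26 in fibroblasts (-5.46 ± 0.21, 43.9-fold, adjusted p = 5.22e-17). Of the Notch ligands, Jag2 differed by -3.33 and Dll1 by -3.21, and Dll4, the ligand that commits precursors to the T lineage, by -1.25 ± 0.12, with 6.07, 6.39 and 7.63 in cTEC and 5.15, 5.38 and 5.66 in fibroblasts. None of the 4 genes had overlapping arrays, and the difference of Dll4 was -2.10 at 1 month but -0.84 and -0.81, under 2-fold, at 3 and 6 months. Cxcl12, the chemokine for CXCR4 that fibroblasts of many tissues make, was at 11.85, 12.56 and 13.17 in cTEC and 8.2, 9.21 and 10.92 in fibroblasts (-3.08 ± 0.24), also with no overlap. Stem cell factor (Kitl) differed by -1.51 ± 0.32 and Csf1, the macrophage growth factor, by -1.42. Averaging a gene's probe sets gave 5 and 3 in place of 8 and 3.

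Cytokines on the fibroblast side were few and changed with age. Tslp, a cytokine of barrier epithelia, was at 4.02, 6.23 and 7.29 in fibroblasts and 3.64, 3.88 and 4.26 in cTEC (2.14 ± 0.26), overlapping through replicate 2 at 6 months. Ccl11, eotaxin, differed by 1.15 ± 0.35 over all ages, which hides its course: fibroblast arrays had 11.11 and 10.9 at 1 month, 10.04 and 9.18 at 3 months and 9.9 and 7.72 at 6 months, while cTEC arrays had 6.32 and 7.71, 9.07 and 8.35, and 9.91 and 10.61. The difference was thus 3.99 at 1 month, called, and 0.90 and -1.45 at 3 and 6 months, not called. Without cTEC replicate 1 at 1 month or fibroblast replicate 1 at 6 months the pooled difference of Ccl11 was 0.915 or 0.78, under 2-fold.

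Growth factors were called in both populations, more of them in cTEC. Of 14 trophic factors, 6 were higher in cTEC and 2 in fibroblasts (median -0.611). Pdgfa and Pdgfc, ligands of the PDGF receptors, were at 9.52, 9.86 and 10.03 and at 8.68, 9.42 and 9.76 in cTEC, and at 6.81, 7.5 and 8.24 and 4.85, 6.36 and 6.87 in fibroblasts. They differed by -2.23 ± 0.12 and -3.16 ± 0.30 with no overlap, opposite to Pdgfra and Pdgfrb above. Gas6, the ligand of the TAM receptors, differed by -4.01, midkine (Mdk) by -2.61 and Angpt1 by -1.39. Pleiotrophin (Ptn), the relative of midkine, was instead higher in fibroblasts by 1.88 ± 0.38, as was the lymphatic factor Vegfc by 1.59, both with overlap.

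The fibroblast growth factors known to drive thymic epithelial growth were not among the called genes. Fgf7 differed by -0.05 ± 0.14 with its other probe set at 0.82, and Fgf10 by 0.40 ± 0.10, neither called, while their receptor gene Fgfr2 was at 10.04, 10.54 and 10.99 in cTEC and 5.76, 6.83 and 7.15 in fibroblasts (-3.90 ± 0.15). Met, the hepatocyte growth factor receptor, was likewise a cTEC gene (-4.60 ± 0.17), as was the LIF receptor Lifr (-2.45), all 3 with no overlap. Hgf, the ligand of Met, was near the threshold in cTEC (-1.01 ± 0.18) and overlapped, with the call lost in 6 of the 12 fits that left out 1 array. Of 15 receptors, 4 were higher in fibroblasts and 3 in cTEC (median -0.234).

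Among BMP and TGF-beta ligands and antagonists, 6 of 18 were higher in each population (median -0.183). Follistatin (Fst), which binds activins, was at 8.63, 11.28 and 11.61 in cTEC and 5.29, 6.69 and 6.92 in fibroblasts (-4.45 ± 0.25, adjusted p = 1.01e-13), and the BMP modulator Twsg1 differed by -1.76. Bmp7 (-1.47) and Bmp6 (-1.92) were cTEC genes, while Bmp5 (2.61), Gdf10 (2.82) and the activin chain gene Inhba (1.38) were fibroblast genes, all except Inhba with no overlap. Bmp4, a factor of thymus formation, was at 6.03, 7.6 and 9.27 in fibroblasts and 5.89, 6.37 and 7.1 in cTEC, a difference of 1.20 ± 0.21 with overlap. It was 2.32 at 1 month, 1.16 at 3 months and 0.13 at 6 months, the last not called, and 0.90 in the fit without fibroblast replicate 1 at 6 months. With the thymocyte covariate the counts were 3 and 4.

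Of 15 Wnt ligands and antagonists tested, 1 was higher in fibroblasts and 2 in cTEC (median -0.14). Of all genes tested, 9.05% were higher in fibroblasts and 12.2% in cTEC. Wnt4, a ligand known to raise Foxn1, was at 10.51, 11.11 and 11.88 in cTEC and 5.17, 5.64 and 5.9 in fibroblasts (-5.55 ± 0.13, 46.9-fold, adjusted p = 5.11e-21). The Wnt antagonist Sfrp1 was also a cTEC gene (-3.48 ± 0.17), and the antagonist Dkk2 the fibroblast gene (3.06 ± 0.28), each with no overlap. In the retinoic acid pathway, 4 of 14 genes were higher in cTEC and none in fibroblasts (median -0.33). The retinal dehydrogenase Aldh1a1 differed by -2.39 ± 0.21 with overlap, the retinoic acid hydroxylase Cyp26b1 by -1.57 and the binding protein Crabp2 by -1.37. Aldh1a1 differed by 0.19 at 1 month, not called, and by -2.70 and -4.64 at 3 and 6 months. Without the 6-month arrays 3 retinoic acid genes were called in fibroblasts and 4 in cTEC.

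**Figure D3:**
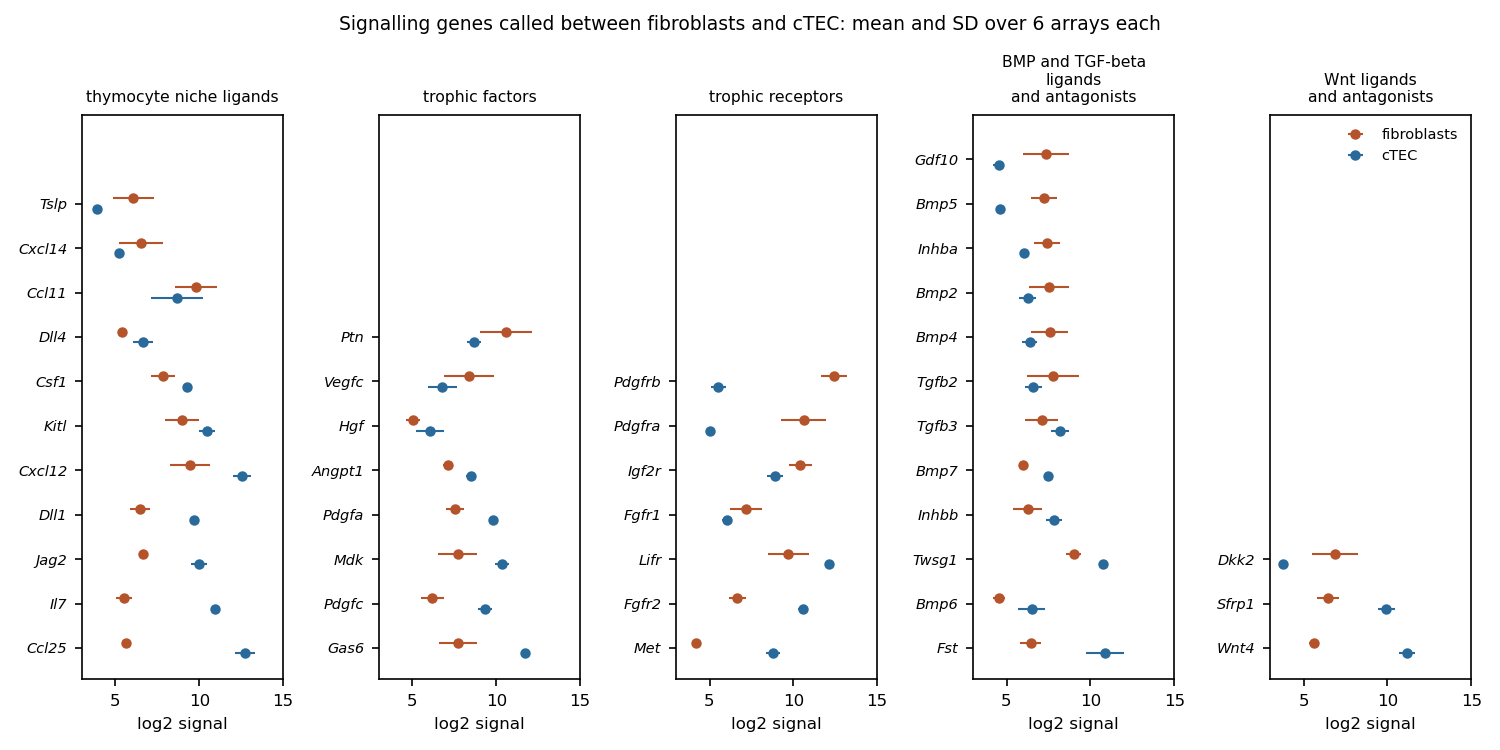
Mean log2 signal with SD over 6 arrays (horizontal axis) of each called gene of 5 signalling lists (vertical axis), fibroblasts in orange and cTEC in blue. Levels of different genes are not comparable on arrays, so the gap within a row is what the plot shows, for example Il7 (means of 10.96 in cTEC and 5.51 in fibroblasts) and Tslp, which runs the other way.

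Antigen processing genes were called in 1 direction. Of 22 antigen processing genes, 12 were higher in cTEC and none in fibroblasts (median -1.16). H2-Aa, the alpha chain of MHC class II, was at 12.96, 13.53 and 13.75 in cTEC and 8.75, 9.5 and 11.12 in fibroblasts (-3.65 ± 0.23), and H2-Ab1 (-3.83), H2-Eb1 (-4.33), the invariant chain Cd74 (-4.36) and H2-DMa (-3.66) kept that order with no overlap. Ciita, the class II transactivator, differed by -1.93. The immunoproteasome subunits Psmb9 (-1.81) and Psmb10 (-1.30) were cTEC genes, whereas Psmb8 (0.43) and the constitutive subunits Psmb5 (0.02), Psmb6 (0.03) and Psmb7 (0.04) were not called. The class I genes B2m (-0.04 ± 0.13) and H2-K1 (-0.53) were not called.

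Complement ran the opposite way. Of 7 complement genes tested, 6 were higher in fibroblasts and none in cTEC (median 1.35). Without fibroblast replicate 1 at 6 months C1ra (0.78) and C2 (0.96) fell under 2-fold. The C1 protease gene C1s1 was at 9.4, 11.89 and 12.49 in fibroblasts and 7.72, 9.41 and 10.4 in cTEC (2.26 ± 0.28), factor B (Cfb) differed by 1.93 and Masp1, of the lectin pathway, by 1.36. Of the 6, Masp1 alone had no overlap. It fell with age (by 2.74 from 1 to 6 months, adjusted p = 9.73e-07), from 9.33 and 8.12 at 1 month to 6.76 and 6.66 at 3 and 6.04 and 5.93 at 6 months, against 5.54 to 5.92 in cTEC, and the called genes of the list numbered 6, 3 and 1 at the 3 ages.

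Lipid and stress genes were called in both directions, where 21.3% of all genes tested were called in either direction. Of 10 adipogenic and lipid genes, Ebf2, a factor of preadipocytes, was higher in fibroblasts by 3.66 ± 0.15 with no overlap, lipoprotein lipase (Lpl) by 1.46 with overlap, and Cebpa was higher in cTEC by 2.47 (-2.47 ± 0.16). Adipoq (0.05) and Pparg (0.54) were not called. Of 16 immediate early and heat shock genes, which digestion can induce, Nr4a1 (1.96) and Dusp1 (1.08) were higher in fibroblasts and Atf3 (-1.14) in cTEC, and the median was 0.249. The calls of Dusp1 and Atf3 were each lost in 4 of the 12 fits that left out 1 array, with Dusp1 at 0.925 to 0.983 and Atf3 at -0.65 to -0.99. Fos differed by 0.30 ± 0.16 and Hspa1a by 0.31 ± 0.21, neither called.

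The thymocyte markers themselves were higher in the fibroblast sort, 13 of 13 (median 2.53). Ptcra, the pre-T cell receptor alpha chain, was at 7.62, 9.91 and 10.57 in fibroblasts and 5.08, 6.44 and 7.61 in cTEC (3.10 ± 0.16), barely separated, and Rag1 at 10.42, 12.14 and 12.59 against 6.07, 9.85 and 10.7 (2.53 ± 0.55), overlapping. Mitosis genes moved with them: 19 of 19 were called in fibroblasts (median 1.67), among them Mki67 (2.06 ± 0.15) and the mitotic checkpoint gene Bub1 (2.24 ± 0.19). All 19 overlapped between the populations, and Plk1 (1.02) was at 0.93 without fibroblast replicate 2 at 6 months. With the thymocyte mean as a covariate 9 mitosis genes were called in fibroblasts, while averaging a gene's probe sets called 13. That covariate is the mean of the 13 thymocyte markers, so their own loss of calls under it was fixed in advance (1 called in fibroblasts and 2 in cTEC). With that covariate Pdgfrb differed by 6.55, Postn by 6.72 and Psmb11 by -6.00, each still called.

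Some of the calls above ended under another setting. With the thymocyte covariate these were Dcn, Cdh11, Col12a1, Lox, Fbln5, Ltbp3, Thbs1, Thbs2, Fn1, Kitl, Ccl11, Csf1, Hgf, Ptn, Mdk, Lifr, Bmp6, Inhba, Aldh1a1, Crabp2, Lpl and Atf3, each in its first direction. When a gene's probe sets were averaged they were Dll4 (-0.91), Kitl (-0.93), Csf1 (-0.80), Angpt1 (-0.96), Lox (-0.80), Fbln5 (-0.68), Thbs1, Thbs2, Fn1, Hgf, Inhba (0.71), Twsg1 (-0.82), Masp1 (0.74) and Esrp2 (-0.57).

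Taken age by age, the contrast narrowed for matrix and widened for cell division. At 1 month 2666 genes (18.4%) were called, at 3 months 3581 (24.7%) and at 6 months 3895 (26.9%), each from 2 arrays against 2. Higher in fibroblasts were 1145 (7.9%), 1742 (12%) and 1581 (10.9%), and higher in cTEC 1521 (10.5%), 1839 (12.7%) and 2314 (16%). Of 14 fibroblast markers, 13, 13 and 10 were higher in fibroblasts, with medians of 5.37, 3.79 and 2.63, and of 16 fibrillar collagens 12, 11 and 8, with medians of 3.41, 1.83 and 1.19. At 6 months the counts were 13 and 10 without fibroblast replicate 2, 7 and 2 without replicate 1, and 4 and 2 in the fit of the compared groups alone. Postn differed by 6.69, 6.60 and 6.62 at the 3 ages, Psmb11 by -6.75, -5.87 and -6.03 and Pdgfrb by 7.33, 7.03 and 6.42, each called. None of 19 mitosis genes was called at 1 month (median -0.16), against 19 at 3 months (3.42) and 17 at 6 months (1.96), all higher in fibroblasts. Thymocyte markers were called in 4, 13 and 12 of 13 cases at the same ages (at 1 month 11 without fibroblast replicate 1 and 0 without replicate 2), and with the thymocyte covariate mitosis genes numbered 17 at 3 months and 2 at 6 months.

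Among the largest differences at 6 months without overlap of arrays were those of a secretory and an antibody gene. Bpifa1, a secreted airway protein, averaged 10.81 in cTEC and 3.66 in fibroblasts at that age (-7.15 ± 0.69, adjusted p = 7.78e-09). Igha, the IgA heavy chain, averaged 13.88 and 6.73 (-7.145 ± 1.36, adjusted p = 1.23e-04). B cell markers averaged 5.39 to 6.16 in cTEC arrays and 5.40 to 6.62 in fibroblast arrays, and their part in the Igha result was not tested.

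Fibroblasts changed widely with age in these arrays. From 1 to 6 months 5250 genes (36.2%) changed at an adjusted p under 0.05, the rule for changes with age, 2296 up (15.8%) and 2954 down (20.4%), and from 1 to 3 months 2962 (20.4%), 1457 up (10.1%) and 1505 down (10.4%). From 3 to 6 months 2341 (16.2%) changed, 1001 up (6.91%) and 1340 down (9.24%). The difference between 3' and 5' probe sets of Gapdh and Actb, a sign of RNA quality, moved with age as well: it was 3.15 and 2.37 at 1 month, 2.28 and 1.94 at 3 months and 1.86 and 1.72 at 6 months. With it as a covariate the changes numbered 1864 to 3 months, 2697 to 6 months and 2076 from 3 to 6 months. The counts also lean on single arrays and on the spread of the whole study. Without replicate 1 at 1 month or replicate 2 at 6 months the change to 6 months had 2308 or 2147 genes, with the lone array assumed to vary like the other groups. The change to 3 months had 1078 genes without replicate 1 at 1 month and 1060 without replicate 2 at 3 months, and the change from 3 to 6 months 1050, 1351 and 752 without replicate 1 or 2 at 3 months or replicate 2 at 6 months. Fitted by limma on the groups compared alone, 0 genes passed from 1 to 6 months (4345 at an unadjusted p under 0.05), 0 from 3 to 6 months (3396 unadjusted) and 1210 from 1 to 3 months (3764 unadjusted).

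Most tested members of several matrix lists fell in fibroblasts. From 1 to 6 months 13 of 14 fibroblast markers fell and none rose (median -2.39), as did 14 of 16 fibrillar collagens (-3.01), 15 of 16 collagen processing enzymes (-2.4), 16 of 20 proteases and inhibitors, 16 of 20 matricellular genes and 12 of 14 mural markers (-1.27), where the median of all genes was -0.0745. Col14a1, a fibril-associated collagen, was at 10.01 and 9.3 at 1 month, 7.88 and 7.65 at 3 months and 6.03 and 4.76 at 6 months, and fell by 4.25 to 6 months (adjusted p = 6.4e-08). Mfap5, a microfibril protein, fell from 9.38 and 9.16 through 6.45 and 6.48 to 5.89 and 4.84, by 3.91 in all, and the ages do not overlap for either gene. Mmp2 fell by 3.79 and Serpinh1 by 3.62, whereas Postn fell short of the test (-0.81, adjusted p = 0.22). Without replicate 2 at 6 months the falls numbered 5 of 14 fibroblast markers, 10 of 16 collagens, 14 of 16 processing enzymes, 7 of 20 matricellular genes, 11 of 20 proteases and 8 of 14 mural markers. Without replicate 1 at 1 month they numbered 9, 12, 14, 9, 14 and 8 in the same order, and in the fit of the compared groups alone 0 in each list.

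The early part of that change was smaller but did pass in the narrower fit. From 1 to 3 months 5 fibroblast markers, 10 of 16 collagens and 13 of 16 processing enzymes fell, and 5, 10 and 8 in the fit of those 2 groups alone. Without replicate 1 at 1 month the falls were 2, 3 and 4, and without replicate 2 at 3 months 1, 3 and 2. Thymocyte markers rose in 4 of 13 cases by 3 months and 8 of 13 by 6 months (median 1.37 by 6 months). Without replicate 1 at 1 month these were 1 and 2 (median 0.608 by 6 months), and in the compared groups alone 1 and 0. The falls by 6 months numbered 7 of 14 fibroblast markers, 10 of 16 collagens and 14 of 16 processing enzymes with the thymocyte covariate. The changes named next are the largest among called genes whose arrays at 1 and 6 months did not overlap. Rises included the T cell receptor gamma genes Trgv4 (3.88) and Trgv1 (3.20), beside Mpzl2 (3.90), an adhesion molecule, and the cystine transporter Slc7a11 (3.37). The largest such fall was that of Pth, parathyroid hormone, from a mean of 11.17 at 1 month to 4.60 at 6 months (-6.57 ± 1.47, adjusted p = 0.00127). Col14a1 above and Chga, chromogranin A of endocrine granules (-4.23 ± 0.83), followed, and then the matrix genes Cpxm1 (-3.91), Mfap5 and Smoc2 (-3.895).

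In cTEC the same fit called fewer genes at each step, though the difference in number was not tested. From 1 to 3 months 783 genes (5.4%) changed, 221 up (1.52%) and 562 down (3.88%), from 1 to 6 months 935 (6.45%), 393 up (2.71%) and 542 down (3.74%), and from 3 to 6 months 556 (3.84%), 397 up (2.74%) and 159 down (1.1%). After quantile normalization the splits were 250 up and 361 down to 3 months and 273 up and 312 down from 3 to 6 months. The 3'-5' difference moved with age in cTEC as well. It was 2.63 and 2.43 at 1 month, 2.04 and 1.94 at 3 months and 1.96 and 2.045 at 6 months. With it as a covariate fewer genes changed from 1 month, as counted in the closing section, and its part in the changes below was not tested further. The groups compared alone gave 411, 229 and 340 genes, where fibroblasts had 1210, 0 and 0, so the order of the populations turned for both steps to 6 months. The change to 3 months had 138, 234 and 514 genes without replicate 1 at 1 month, replicate 1 at 3 months or replicate 2 at 3 months. The change to 6 months had 299, 546 and 437 without replicate 1 at 1 month or replicate 1 or 2 at 6 months, and the change from 3 to 6 months 163, 278 and 84 without replicate 1 or 2 at 3 months or replicate 2 at 6 months.

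Cell division genes fell in cTEC. From 1 to 3 months 18 of 19 mitosis genes fell (median -2.09) and from 1 to 6 months 18 (-1.41), against all-gene medians of -0.0832 and -0.0708. Mki67 was at 10.61 and 10.06 at 1 month, 7.35 and 8.71 at 3 months and 8.6 and 8.76 at 6 months, so that both later ages lay below the first, by 2.30 and 1.66. Cenpa, the centromeric histone, fell by 2.84 to 3 months (adjusted p = 1.6e-05). The fall of the list to 3 months held for 16 genes in the groups compared alone and for 14 to 18 with 1 array left out, and for 11 with the thymocyte covariate, and 5 of 13 thymocyte markers fell too. To 6 months it was 11 genes in the groups alone and 7 and 12 without replicate 1 at 1 month or replicate 1 at 6 months. Of 20 basement membrane genes 5 fell to 6 months, Nid1 (-2.405), Col17a1 (-1.76), Lama4 (-1.58), Agrn (-1.04) and Col18a1 (-0.90), or 1 in the groups alone and 1 without replicate 2 at 1 month or replicate 2 at 6 months, and 3 of 16 collagens fell. Of 13 cTEC markers 4 fell to 3 months, Psmb11 by 1.30, Prss16 by 1.41, Ccl25 by 1.19 and Dll4 by 0.95, and 0 did with the thymocyte covariate or without replicate 1 at 1 month. By 6 months the largest rises in cTEC among genes whose arrays did not overlap were those of antibody light chain genes and of Otog. The former were a kappa variable gene (4.59 ± 0.78) and Iglv1 (4.44 ± 1.23). Otog, an otogelin of inner ear matrix, rose by 4.48 ± 0.29 (adjusted p = 9.04e-10). The tight junction gene Cldn9 (3.87), the ubiquitin ligase adaptor Fbxo2 (3.85) and Cbln4 (3.66) followed. Of 14 retinoic acid genes 3 rose, Rdh10 (1.46), Rarb (1.13) and Cyp26b1 (1.07), and 2 did in the groups compared alone.

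**Figure D4:**
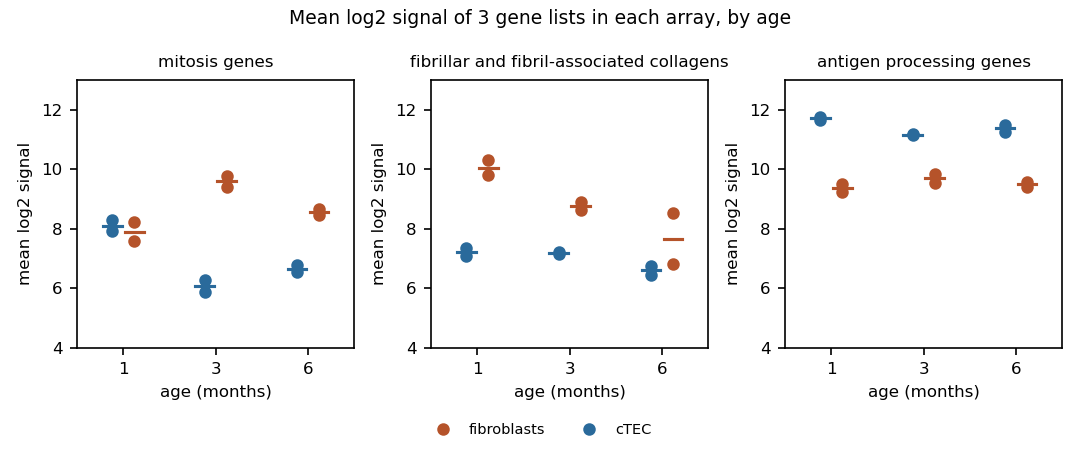
Mean log2 signal of the measured genes of 3 lists (vertical axis) by age in months (horizontal axis), 1 point per array and a bar at the mean of 2, fibroblasts in orange and cTEC in blue. The collagen mean is over 17 genes, of which 16 were tested. Mitosis genes lie together at 1 month and apart at 3 months, fibrillar collagens approach the cTEC level in 1 fibroblast array at 6 months (6.80), and antigen processing genes stay at 11.2 to 11.8 in cTEC and 9.24 to 9.85 in fibroblasts.

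The change with age itself differed between the populations. From 1 to 3 months 2181 genes (15%) changed by different amounts, 1414 more upward in fibroblasts (9.76%) and 767 more downward (5.29%), or 1299 and 1080 after quantile normalization. From 1 to 6 months 2774 did (19.1%), 1195 upward (8.24%) and 1579 downward (10.9%). The first count was 1020, 1209, 1055 and 1301 without fibroblast replicate 1 at 1 month, fibroblast replicate 2 at 3 months, cTEC replicate 1 at 1 month or cTEC replicate 1 at 3 months. The second was 1065, 925, 1289 and 1661 without fibroblast replicate 1 at 1 month, fibroblast replicate 2 at 6 months, cTEC replicate 1 at 1 month or cTEC replicate 1 at 6 months. In the groups compared alone limma called 1310 and 20 (3970 and 3493 at an unadjusted p under 0.05), and with the thymocyte covariate 412 and 395.

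Mitosis genes diverged at both steps. All 19 changed more upward in fibroblasts than in cTEC, by a median of 3.70 to 3 months and 2.16 to 6 months, and the former held for 18 genes with the thymocyte covariate and for all 19 in the groups compared alone and with any 1 array left out. The latter was 1 gene in the groups compared alone, 5 with the thymocyte covariate and 14 to 19 with 1 array left out. In fibroblasts Mki67 was at 10.24 and 10.38 at 1 month, 11.68 and 11.94 at 3 months and 11.14 and 11.04 at 6 months, so it rose (by 1.501 to 3 months) while it fell in cTEC, and the changes differed by 3.80 (adjusted p = 1.21e-07). Hells, a chromatin remodeller of dividing cells, rose by 2.97 in fibroblasts and fell by 2.56 in cTEC, and the cyclin Ccne2 rose by 3.02 and fell by 2.33. Thymocyte markers diverged in the same direction in 6 of 13 genes at each step, and their part in the mitosis result was not tested beyond the covariate.

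Several matrix and niche genes diverged the other way. Of 16 collagens 6 moved more downward in fibroblasts by 3 months and 9 by 6 months, or 0 and 2 with the thymocyte covariate. Smoc2, a calcium-binding matrix protein, was at 9.49 and 9.41, 7.71 and 7.08, and 6.27 and 4.84 in fibroblasts from 1 to 6 months, and at 6.38 and 7.77, 8.67 and 8.97, and 9.29 and 8.26 in cTEC. The populations thus changed places, from 2.37 at 1 month to -1.42 and -3.22 at 3 and 6 months, each called, and the changes to 6 months differed by -5.59 ± 0.55 (adjusted p = 9.18e-07). The changes of Ccl11 to 6 months differed by -5.435 ± 0.857 (adjusted p = 1.89e-04) and those of Aldh1a1 by -4.83. Pth fell by 6.57 in fibroblasts and stood 3.36 higher at 6 months than at 1 month in cTEC, a divergence of -9.93 ± 2.08 (adjusted p = 0.00234).

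Fibroblasts and cTEC also had genes in common against the remaining sorts. Their mean differed from the mean of mTEClo, mTEChi and both dendritic populations in 1972 genes (13.6%), 1003 higher (6.92%) and 969 lower (6.69%), and 28 genes (0.193%) had all 12 arrays above all 24 others. Igfbp7, a secreted insulin-like growth factor binding protein, led with a lowest value of 10.26 in the 12 arrays and a highest of 7.88 in the 24, a difference of 4.90 ± 0.18 (adjusted p = 2.88e-17). Dcn (4.24), dermatopontin (Dpt, 3.89), the endothelin receptor Ednrb (3.57), Rgcc (2.85), Mxra8 (2.705) and Plxdc2 (2.39) followed. Next were Bmp4 (2.28), Dnajb4 (2.07), Prkcq (2.06), a kinase of T cell receptor signalling, and the CSF1 receptor ligand Il34 (2.04). Genes outside matrix and signalling, such as Sesn1 (1.67), Setd7 (1.39) and Anp32a (1.04), were in the set too. Dcn averaged 10.38 in mTEClo and 9.46 in mTEChi, against 6.26 and 6.35 in Sirpa- and Sirpa+ dendritic cells. Its lowest of the 12 was 11.25 and its highest of the 24 was 10.7. Some genes were separated narrowly at a dim signal. The lowest of the 12 and highest of the 24 were 5.01 and 4.89 for Il34 and 5.56 and 5.44 for Dpt. The cTEC mean of Il34, 5.60, lay under the pooled median of all values, 5.66. Ednrb was at a mean of 8.57 in fibroblasts and 8.32 in cTEC, a difference of 0.25 that was not called, while Dpt was at 11.03 and 6.46, so the shared set held genes at like and at very unlike levels.

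As a mean of fibroblasts and cTEC, matrix lists and thymocyte markers were both higher than in the mean of the other 4 populations. By that mean, fibroblast markers were higher in 11 of 14 genes (median 2.78), matricellular genes in 12 of 20 (1.38), fibrillar collagens in 10 of 16 (1.57), basement membrane genes in 10 of 20 and small proteoglycans in 8 of 12 (2.03), with 1 of 12 lower. Against medullary epithelium cTEC alone varied. Their mean over the collagens was 7.0, against 7.30 in mTEClo and 7.28 in mTEChi. It was 7.08 against 7.31 and 6.55 for matricellular genes, and 6.52 against 6.25 and 6.73 for fibroblast markers. For basement membrane genes it was 7.68 against 7.64 and 7.05, and for small proteoglycans 6.81 against 6.17 and 6.48. Thymocyte markers were higher in 11 of 13 (2.93). Under the thymocyte covariate 9 collagens and 13 matricellular genes were called. Of the thymocyte markers 1 was then higher and 1 lower, a loss fixed in advance because the covariate is their own mean. All 7 dendritic cell markers, 9 of 11 macrophage markers and 5 of 7 medullary markers were lower, where 2 of the 4 populations on the other side are dendritic and 2 medullary. Dendritic cell markers averaged 10.57 and 9.61 in Sirpa- and Sirpa+ dendritic cells and 7.15 in mTEChi, against 5.88 in cTEC and 6.20 in fibroblasts. Macrophage markers averaged 8.17, 10.34 and 7.54 in the same 3 sorts, against 5.77 and 5.79.

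**Figure D5:**
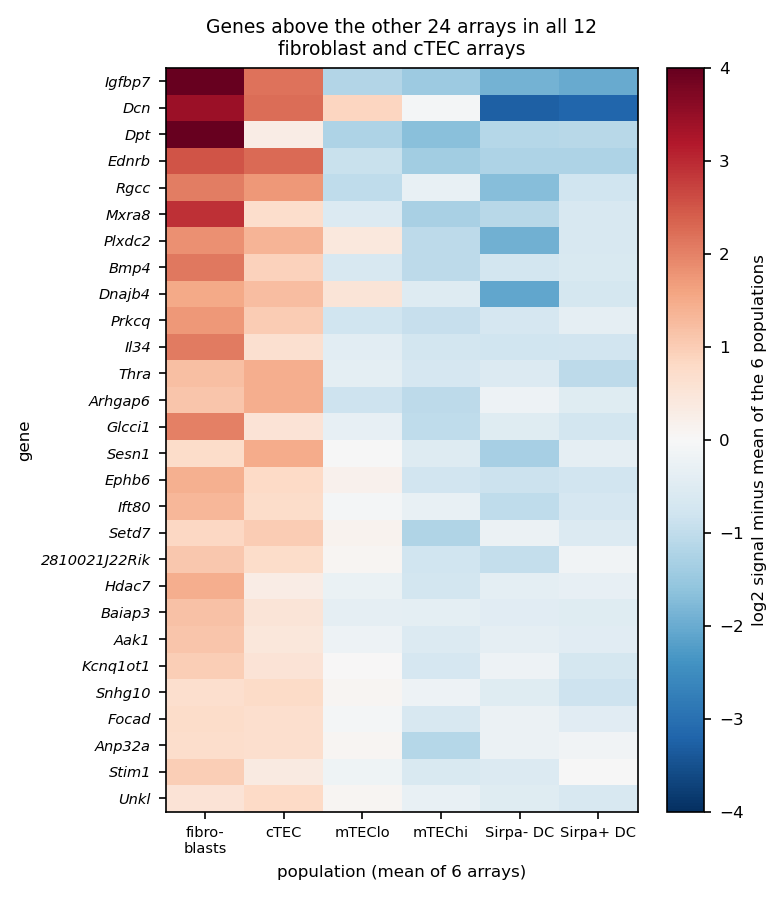
The 28 genes whose signal in all 12 fibroblast and cTEC arrays exceeded that in the other 24 arrays (rows), coloured by log2 signal minus the mean of the 6 populations, 1 column per population as a mean of 6 arrays. The fibroblast and cTEC columns are high in each row by construction of the set, with fibroblasts above cTEC for Dpt and Mxra8 and near them for Ednrb and Thra.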

How the data were processed

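RNA of 6 sorted thymic populations was measured on 36 Affymetrix mouse expression arrays. The authors deposited log2 values, made with GCRMA per the submitters' processing notes and normalized through Gene Expression Commons per the series' design text. These values were used as deposited, with array medians of 5.61 to 5.75. Of 45101 probe sets, 34945 have 1 gene symbol, 932 several and 9160 none, beside 64 controls. Each of 18193 genes took its 1-symbol probe set with the highest mean over all arrays. Genes above the pooled median of 5.66 in at least 2 arrays were tested, 14495 in all.

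Limma 3.58.1 in R 4.3.3 fitted 18 groups of 2 arrays (18 residual degrees of freedom) with an intensity trend, and p-values were adjusted by Benjamini-Hochberg. All 6 populations share 1 estimate of the spread, though fibroblast arrays varied more. Calls between populations needed an adjusted p under 0.05 and 2-fold, and calls with age an adjusted p under 0.05. The comparisons share arrays with each other. The script was tested on simulated data. Named genes were those of 31 lists and, by rule, the largest called differences of each comparison among genes whose arrays did not overlap. The members and lists were chosen with earlier results of these data known. With 2 arrays per group, and separate animals not assured, p-values measure only the spread between these arrays. Promoters came from RefSeq (GRCm38.p6).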

Additional observations from a re-analysis of the deposited data

Results flagged for a closer look

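Of 122 groups of 6 arrays examined for a single array far from the rest, 9 had one. Chance gives about 1 in 20 for arrays of 1 kind, a rate not far below the one found. The 6 arrays span 3 ages and the groups share arrays, so that rate is only a guide. In fibroblasts, replicate 1 at 1 month had a thymocyte marker mean of 8.82 where the others had 10.4 to 11.1, and an erythroid marker mean of 7.86 where the others had 4.87 to 5.39. Replicate 2 at 6 months was low for Tfpi2 (5.65, others 8.89 to 10.8), Spon1 (8.04, others 10.08 to 11.22), Sparcl1 (8.83, others 10.93 to 11.7) and Lum (8.42, others 11.2 to 12.55), and high for Tbata (6.63, others 3.44 to 4.62). In cTEC, replicate 1 at 1 month was low for the mean of mTEC markers (7.09, others 7.65 to 7.99) and of trophic factors (6.92, others 7.17 to 7.31).

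The change with age differed between the populations, by a test of that difference in limma, for 2181 genes from 1 to 3 months and 2774 from 1 to 6 months. The genes named are the largest among those whose changes between single arrays did not overlap between the populations. To 3 months the largest were Hells (5.53), Ccne2 (5.35) and Esco2 (5.22), more upward in fibroblasts, and Chga (-4.41), Scn7a (-3.92) and Tspan8 (-3.82), more downward. To 6 months they were Trgv4 (4.21), Depdc1a (3.46) and Il2ra (3.45) upward and Pth (-9.93), Chga (-5.85) and Smoc2 (-5.59) downward.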

How the results depend on the processing

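The direct comparison of the populations gave 3087 genes and 3004 to 3215 with 1 array left out, and 3088 with a replicate block by age and number. Same-numbered fibroblast and cTEC arrays had residual correlations of -0.0468, 0.0962 and 0.189 at the 3 ages, so the numbers were not taken as pairs. Over all pairs of sorts these correlations ran from -0.0676 to 0.418, the highest for Sirpa- and Sirpa+ dendritic cells at 3 months. Sirpa- dendritic cells and fibroblasts had 0.302 at that age, so independence of same-numbered arrays is not established. Leaving out 1 array gave 2513 to 2762 genes at 1 month, 3406 to 3707 at 3 months, 3427 to 4406 at 6 months and 1928 to 1997 for the comparison with the other 4 populations. For fibroblasts it gave 1060 to 3256 from 1 to 3 months, 2147 to 5421 from 1 to 6 and 752 to 3085 from 3 to 6, for cTEC 138 to 884, 299 to 1107 and 84 to 630, and for differing changes 1020 to 2784 and 925 to 3697. At 4-fold the counts were 1064 over all ages, 1005, 1314 and 1433 by age and 481 against the other populations, and at 2-fold 1473, 2645 and 1009 for fibroblast ages and 452, 586 and 277 for cTEC ages. The thymocyte covariate gave 1625 genes at 3 months, 2009 at 6 months, 1851 and 2041 for fibroblasts from 1 month, 129 and 144 for cTEC from 1 to 3 and 3 to 6 months, and 412 and 395 differing changes. The compared groups alone gave 1210, 0 and 0 for fibroblasts, 411, 229 and 340 for cTEC and 1310 and 20 for differing changes, and the fit with the 3'-5' difference of Gapdh and Actb gave 1864 and 2697 for fibroblasts and 409 and 567 for cTEC from 1 month. The cause of these shifts was not tested. Under the thymocyte covariate the direction turned for Cd3g (-0.0034), Rag1 (-2.63), Dntt (-1.01), Cd8a (-0.26), Cd8b1 (-0.30), Arpp21 (-0.21) and Rarg (0.058). All but Rarg are among the markers whose mean is that covariate, so sign turns among them follow from the adjustment itself. A fit of only the compared groups is the same fit for the comparison with the other 4 populations and was not run. The fits without the 6-month arrays were chosen after seeing the data. The number of arrays and the dim end of the signal limit precision.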
